A study of Mus musculus with 9 samples.

Results

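The mitochondrial ribosomal protein genes are the nuclear genes named Mrpl or Mrps with a number, for proteins of the large and the small subunit of the mitochondrial ribosome. Protein-coding genes were taken by that symbol pattern, with pseudogene symbols left out. This gave 78 of the 49671 gene rows, 49 Mrpl and 29 Mrps, and no expression value entered the choice. They were measured by bulk RNA sequencing of sorted mouse skin cells that carried CD49f, the alpha-6 integrin of the basal epidermis, and lacked CD45, which marks leukocytes. The labels give 5 samples as wt/wt and 4 as ko/ko at Flg, the gene of the epidermal barrier protein filaggrin, and the study asked how Flg deficiency alters gene expression in keratinocytes. Both genotypes share the same sort and library preparation. The sources used here do not give strain, sex, age or the Flg allele. Each title carries its own identifier, but nothing says whether each sample is a separate animal, so p-values measure the spread between these samples.

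The mitochondrial ribosome translates the handful of messenger RNAs encoded in mitochondrial DNA, all for subunits of the respiratory chain and ATP synthase. Its ribosomal RNAs are made inside the organelle, whereas all its proteins are encoded in the nucleus, translated in the cytosol and imported. Some members descend from bacterial ribosomal proteins and others are found only in mitochondrial ribosomes. In basal keratinocytes of the skin, as in other cells, the respiratory chain is built from subunits of both genomes.

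The start regions of these genes are shown first because the members are spread over the genome, on 17 chromosomes, with 11 on chromosome 11 and 8 on chromosome 17. RefSeq (GRCm38.p6) gave a window of 250 bases before to 50 after the start for 69 of 78 members. A search on both strands counted exact matches to GCGCATGC (the core of the NRF1 motif, named for a regulator of nuclear genes for mitochondria), CCGGAAG (the ETS family, which includes GABP), AAGATGGC (YY1) and GGGCGG (SP1); overlapping matches of 1 motif each counted. The ETS motif stood in 25 of 69 member windows (36.2%) against 11.9% of the 17492 windows of protein-coding genes, YY1 in 12 (17.4%) against 3.22%, and the NRF1 core in 8 (11.6%) against 3.61%. SP1 matches were about as frequent as in all windows, at 49.3% against 46.3%. TATAAA was searched only on the strand of the gene and only in the 50 bases just before the start. It stood there in 0 of 69 member windows and in 3.55% of all. The median window held 21 CpG dinucleotides against 13. A match is a description of letters, not a site of binding.

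The 4 windows below show the range, with NRF1 core, ETS and YY1 matches in capitals and SP1 unmarked. Mrpl32 (chr13:14612988-14613287, minus strand) is shown because it held 4 NRF1 core matches, a pair of them overlapping, and 1 YY1 match. Mrps18b (chr17:35916391-35916690, minus strand) held 2 NRF1 core matches and 1 ETS match, and Mrps12 (chr7:28741772-28742071, minus strand) held 1 ETS and 1 YY1 match. Mrpl20 (chr4:155802628-155802927, plus strand), the member with the smallest p-value between genotypes, held none of the 4 motifs.
Mrpl32: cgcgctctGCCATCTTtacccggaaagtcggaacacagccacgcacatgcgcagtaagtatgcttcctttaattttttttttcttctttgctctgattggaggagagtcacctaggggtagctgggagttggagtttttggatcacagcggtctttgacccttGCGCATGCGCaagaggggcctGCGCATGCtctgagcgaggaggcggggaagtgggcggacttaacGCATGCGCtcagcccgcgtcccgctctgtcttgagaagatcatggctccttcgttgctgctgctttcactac
Mrps18b: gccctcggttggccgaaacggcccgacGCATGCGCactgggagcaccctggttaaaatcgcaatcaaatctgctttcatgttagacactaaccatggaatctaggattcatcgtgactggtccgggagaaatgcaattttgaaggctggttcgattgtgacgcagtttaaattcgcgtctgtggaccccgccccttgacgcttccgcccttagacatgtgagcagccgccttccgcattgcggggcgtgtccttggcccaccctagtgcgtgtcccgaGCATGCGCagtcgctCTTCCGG
Mrps12: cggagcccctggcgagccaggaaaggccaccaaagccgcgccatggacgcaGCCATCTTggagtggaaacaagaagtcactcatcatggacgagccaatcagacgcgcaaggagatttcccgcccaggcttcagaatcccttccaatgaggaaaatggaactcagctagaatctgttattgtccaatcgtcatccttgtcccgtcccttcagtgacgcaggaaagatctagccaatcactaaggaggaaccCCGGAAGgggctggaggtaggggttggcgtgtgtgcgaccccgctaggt
Mrpl20: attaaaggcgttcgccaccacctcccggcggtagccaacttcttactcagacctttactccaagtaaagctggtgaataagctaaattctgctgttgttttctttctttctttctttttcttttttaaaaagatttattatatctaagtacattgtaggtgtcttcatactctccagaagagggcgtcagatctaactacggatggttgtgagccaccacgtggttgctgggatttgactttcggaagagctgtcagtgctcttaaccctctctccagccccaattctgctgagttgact

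The same motifs were counted in the windows of the most similar families. ETS matches stood in 39.7% of 63 windows of cytoplasmic ribosomal protein genes and in 23.1% of 65 windows of nuclear respiratory chain subunits. The NRF1 core stood in 3.17% and 15.4% of those windows, and YY1 in 7.94% and 12.3%. Within the members, 7 of the 8 genes with an NRF1 core match were Mrpl genes: Mrpl9, Mrpl10, Mrpl17, Mrpl22, Mrpl32, Mrpl33 and Mrpl39. By name, the core stood in 7 of 43 Mrpl windows (16.3%) and in 1 of 26 Mrps windows (3.85%). None of these differences, between families or within the members, was tested.

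Counts totalled 15601859 to 23200440 per library, so that 1 count was worth 0.0453 to 0.0578 CPM (reads of a gene scaled by the size of its library) after library sizes were adjusted by TMM, the scaling used for all CPM here. Flg was at 0 in wt/wt 1 and 2 and in ko/ko 2 and 3, and at 0.102 to 0.293 CPM in the others, too low to check the genotype labels. The labelled epidermal cell type was present but not alone, and fibroblast markers summed far higher than its markers in every library. The 8 basal keratinocyte markers summed to 1475 to 3106 CPM in wt/wt and 1697 to 2662 in ko/ko. The 8 fibroblast markers summed to 26790 to 61960 CPM in wt/wt and 35300 to 61270 in ko/ko. Sums over different marker genes do not give shares of cells. None of these 16 markers was at 0 in any library. The 10 myeloid and leukocyte markers summed to 12.6 to 61.2 CPM in wt/wt and 26.1 to 189 in ko/ko, with C1qc and Tyrobp at 0 in some libraries, and 0 of 10 had an edgeR adjusted p under 0.05, with 9 higher at an unadjusted p under 0.05, 5 called higher by DESeq2 and 3 by limma voom. The 6 endothelial markers, none of them at 0, summed to 222 to 480 CPM in wt/wt and 186 to 226 in ko/ko, with 0 called by edgeR, 3 lower at an unadjusted p under 0.05, and 1 called lower by DESeq2 and 1 by limma voom. Over all genes tested, 8.86% were higher and 6.42% lower at an unadjusted p under 0.05. DESeq2 called 438 higher and 192 lower of 17333 genes, and limma voom 1217 higher and 585 lower of 18435. In bulk RNA, fewer cells of a type and less RNA per cell cannot be told apart. The part of these markers in the results below was not tested.

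Of the 78 genes, 77 were detected well enough to test. The median tested member averaged 30.3 CPM over the 9 libraries, above 70.4% of the 18435 genes tested, whose median was 11.8 CPM. Mrpl53, a large-subunit protein, was the exception: it had 0.153 CPM in wt/wt 1, 0.0506 CPM in ko/ko 4 and 0 counts in the other 7 libraries. At 0 counts, 3 counts remain possible, or 0.136 to 0.173 CPM by library, so its absence is not shown. Exons of Mrpl53 also share bases with Gm42688 on the same strand and with Ccdc142os on the opposite strand. The part of this overlap in its low counts was not tested. The highest level before division by length was that of Mrps14, a protein of the small-subunit head, at 104 to 159 CPM; it is named after its values were seen.

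Per kilobase of exon, the scale used here to compare genes, levels spanned 102-fold around a median of 12.1 CPM per kb, against 3.28 for all tested genes. Mrps28, the small-subunit relative of bacterial S1, led with 75.8 ± 14.0 CPM per kb (SD, n = 9). Mrpl42, a large-subunit protein without a bacterial counterpart, followed at 75.2 ± 11.2 (SD, n = 9), a difference far within their spread. Below them stood Mrpl32, matured in the organelle by the m-AAA protease, at 56.5 ± 9.75 and Mrpl54 at 51.8 ± 10.3 CPM per kb (SD, n = 9). The lower end held Mrpl23 at 0.744 ± 0.197, then Mrps10 at 2.22 ± 0.311, Mrps34 at 2.86 ± 0.563 and Mrps5 at 3.08 ± 0.524 CPM per kb (SD, n = 9). The last 2 did not differ beyond their spread, and the plot of levels by gene shows the libraries of each gene lying close together beside the distance between genes. Exon lengths are those of the authors' gene models, so a long annotated end that these cells do not use would lower a value on this scale. The 102-fold span rests on Mrpl23 at its lower end. That value is uncertain because a pseudogene copy held 8.24 times the CPM of Mrpl23. Copies also held 0.319 times the CPM of Mrpl42 and 0.289 times that of Mrps5. Exons of Mrps34 share bases with Nme3 on the same strand and with Mapk8ip3 on the opposite strand. The places of these genes in the order are therefore uncertain too.

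**Figure D1:**
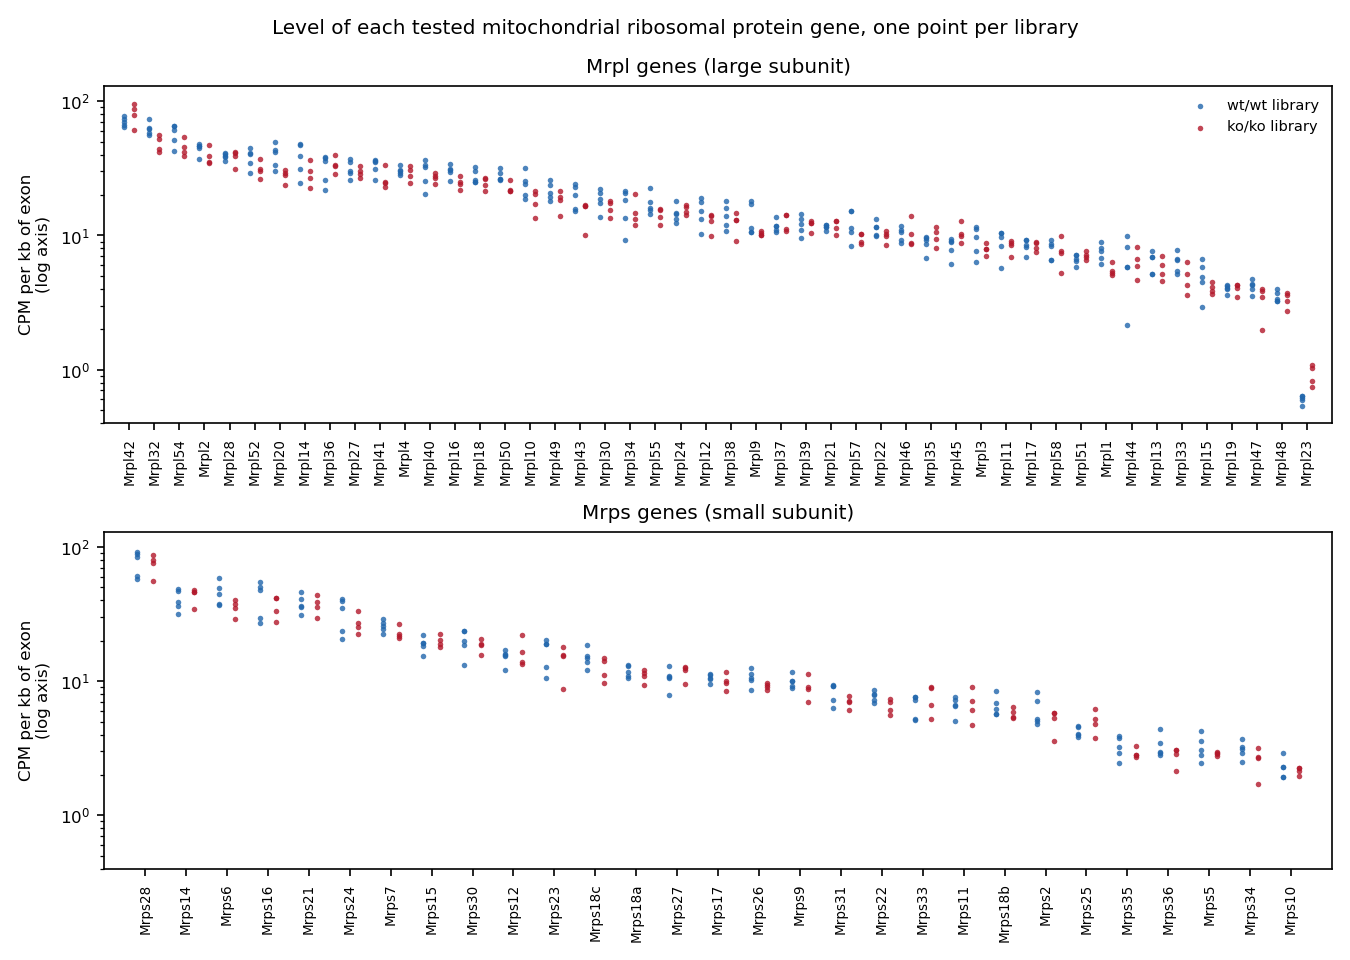
CPM per kb of exon (log axis) of the 77 tested genes, sorted by mean within Mrpl (upper panel) and Mrps (lower panel), with 1 point per wt/wt (blue) or ko/ko (red) library. Levels run from 75.8 CPM per kb for Mrps28 to 0.744 for Mrpl23, whose value is uncertain because of a pseudogene copy. For most genes the genotypes share their range.

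By gene name, both sets covered a wide range, with a median of 13.7 CPM per kb for Mrpl and 10.3 for Mrps. The name does not always give the subunit, as described below for Mrps18a, Mrps30 and Mrps36. Grouped by descent, the 47 tested members of bacterial families had a median of 15.1 CPM per kb, and the 30 tested members found only in mitochondrial ribosomes 10.7. That grouping was made after the values had been seen. It placed every member in either group, also Mrps36, which is described below as not of the ribosome. The order of the members was much the same in every library: Spearman's rho between the member CPM of 2 libraries was 0.864 to 0.970 over the 36 pairs of libraries, across genes that share libraries and lengths. The median member varied less between libraries than the median gene. The coefficient of variation was 16.0% in wt/wt and 13.9% in ko/ko, against 26.5% and 25.0% over all tested genes, and the highest library exceeded the lowest by a median of 1.71-fold against 2.47-fold. The part of their higher level in this smaller spread was not tested.

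Summed over all members, the libraries of the genotypes overlapped. The wt/wt libraries 1 to 5 had 2379, 2391, 2734, 3015 and 2932 CPM, and the ko/ko libraries 1 to 4 had 2605, 2479, 2181 and 2560 CPM. The means were 2690 ± 297 CPM (SD, n = 5) and 2456 ± 191 CPM (SD, n = 4), a ratio of 0.913. The highest sums came from wt/wt 3, 4 and 5, while wt/wt 1 and 2 lay among the ko/ko libraries and ko/ko 3 was lowest. The same libraries set the extremes gene by gene: 30 members had their highest value in wt/wt 4 and 21 in wt/wt 5, whereas 26 had their lowest in ko/ko 3 and 15 in wt/wt 1. Fibroblast markers were also high in wt/wt 3, 4 and 5, at 55870 to 61960 CPM, and low in wt/wt 1 and 2, at 32520 and 26790 CPM. In ko/ko 1 to 4, fibroblast markers summed to 35300, 60300, 41830 and 61270 CPM, beside member sums of 2605, 2479, 2181 and 2560 CPM. The part of cell composition in these sums was not tested.

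**Figure D2:**
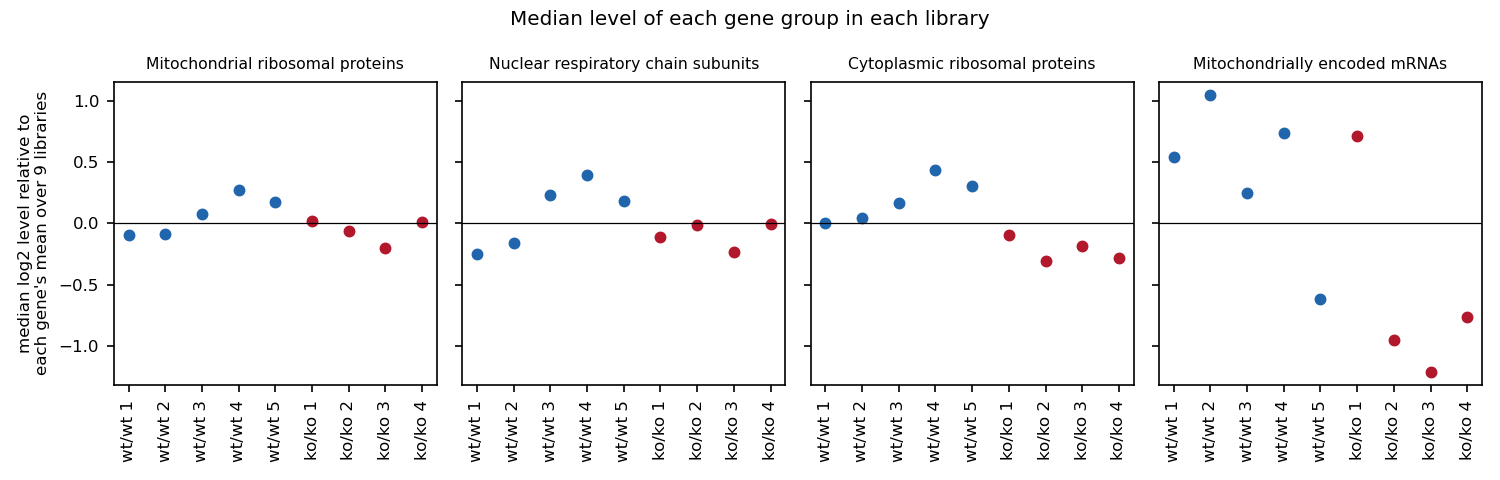
Median log2 level of each gene group in each library, relative to each gene's mean over the 9 libraries, for wt/wt (blue) and ko/ko (red). The mitochondrial ribosomal protein genes run from -0.202 in ko/ko 3 to 0.272 in wt/wt 4 with overlap of the genotypes. Mitochondrially encoded mRNAs vary far more, from -1.208 to 1.044.

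The sum of Mrpl CPM was 1721 ± 191 (SD, n = 5) in wt/wt and 1541 ± 109 (SD, n = 4) in ko/ko, a ratio of 0.896. For Mrps the sums were 969 ± 107 (SD, n = 5) and 915 ± 83.8 CPM (SD, n = 4), a ratio of 0.944. Within a library, the Mrpl sum was 1.75 to 1.82 times the Mrps sum in the wt/wt libraries and 1.62 to 1.73 times in the ko/ko libraries. These ratios did not overlap between genotypes, and they are given without a test because the members were chosen as a group.

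Between genotypes, no member passed the test. edgeR's quasi-likelihood test with Benjamini-Hochberg adjustment over 18435 genes called 0 of 77 members, and their smallest adjusted p was 0.212; 1 gene of all tested was called (0.00542%). At an unadjusted p under 0.05, 4 members were lower in ko/ko (Mrpl20, Mrpl1, Mrpl32 and Mrpl50) and 1 was higher (Mrpl23), against a background of 6.42% of all genes lower and 8.86% higher; these 5 members are 6.49% of those tested, below the 15.3% of all genes. DESeq2 called 0 members and 3.63% of the 17333 genes to which it gave an adjusted p. limma voom with sample quality weights called 6 members lower (Mrpl1, Mrpl14, Mrpl20, Mrpl32, Mrpl33 and Mrpl41) where it called 3.17% of all genes lower. The count of the 77 that were lower at an unadjusted p under 0.05 moved with single libraries. It was 10 without wt/wt 1, 12 without wt/wt 2 and 7 without ko/ko 1, where 7.81%, 6.78% and 4.98% of all genes were lower. It was 2 without wt/wt 4 and 2 without ko/ko 2, where 4.52% and 5.79% of all genes were lower. The count higher was 0 without wt/wt 3, 4 or 5 or ko/ko 1 or 4, where 6.13% to 8.82% of all genes were higher, and 2 without ko/ko 3, where 7.13% were.

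The small differences leaned to lower values in ko/ko. The log2 fold change was below 0 in 60 of 77 members (77.9%) and in 52.6% of all tested genes, and its median was -0.164 among members and -0.026 over all genes. Mrpl genes had a median of -0.171, with 38 of 48 below 0, and Mrps genes -0.155, with 22 of 29 below 0. The 47 tested members that share no exon bases with another gene had a median of -0.164. Members that share libraries move together, so these shares are a description and not a test. The median kept its sign under each scaling tried but moved to -0.045 with library totals alone, where 44 of 77 members were below 0 and the all-gene median was 0.083. Without wt/wt 5 it was -0.104, and without the 3 libraries richest in the predicted gene Gm10800 (wt/wt 1, ko/ko 1 and ko/ko 4) it was -0.260. The spread of the per-library member median within a genotype was 0.139 (pooled SD, log2).

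The intervals set how large a difference these libraries leave possible. The standard error (SE) of a member's log2 fold change had a median of 0.172, against 0.273 over all genes. The 95% interval excluded a 2-fold change in either direction for 76 of 77 members, Mrpl23 being the exception, and a 1.5-fold change for 42. The plot of fold changes by gene shows most intervals crossing 0.

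**Figure D3:**
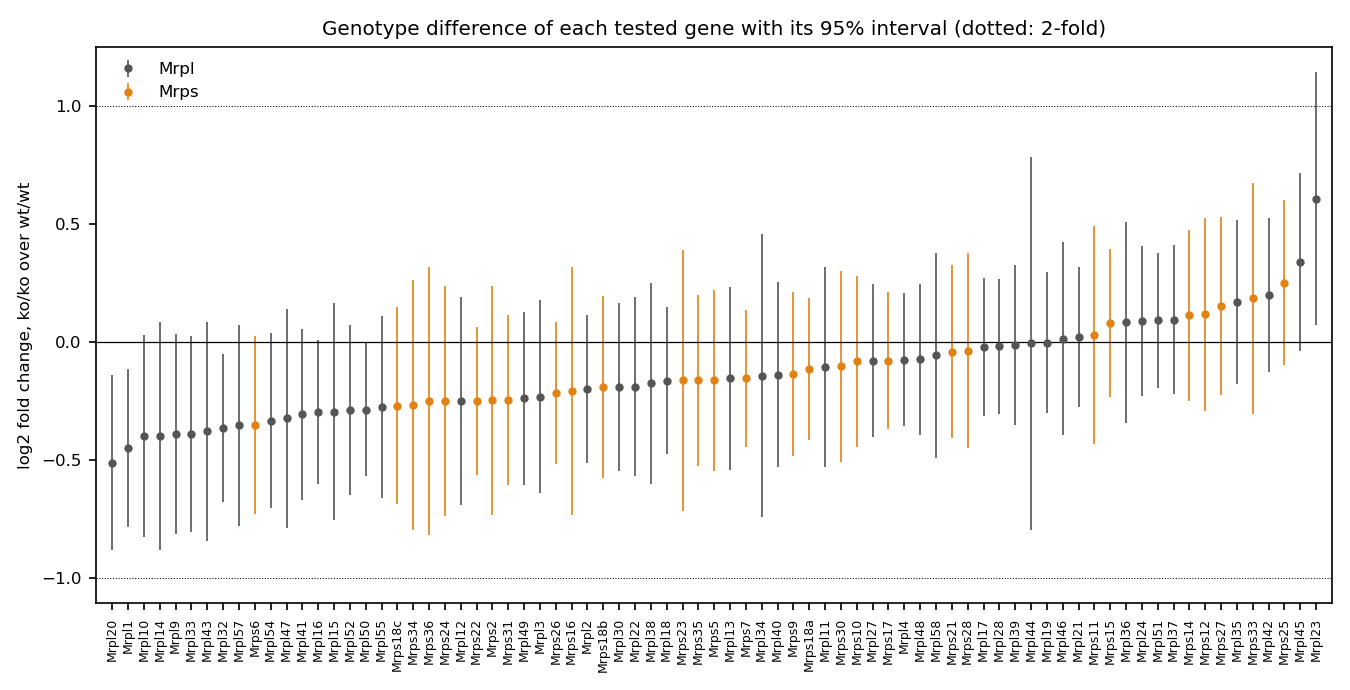
Log2 fold change (ko/ko over wt/wt) with its 95% interval for each of the 77 tested genes, sorted by value, with Mrpl in grey and Mrps in orange and dotted lines at 2-fold. Of the 77 points, 60 lie below 0, and only the interval of Mrpl23 crosses a dotted line.

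Mrpl20, a protein that binds the large ribosomal RNA early in assembly, had the smallest p-value of the members (chr4:155802878-155809975, plus strand). It had 55.8, 50.2, 70.1, 83.4 and 72.5 CPM in wt/wt 1 to 5 and 46.7, 50.9, 39.6 and 48.9 CPM in ko/ko 1 to 4. Only ko/ko 2 reached into the wt/wt range, just above wt/wt 2. Its log2 fold change of -0.51 (SE 0.17) had an edgeR adjusted p of 0.212, a DESeq2 adjusted p of 0.101 and a limma voom adjusted p of 0.0168.

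The stalks of the large subunit, where tRNAs leave and where translation factors bind, are represented by Mrpl1, Mrpl10 and Mrpl12. Mrpl1, the protein of the L1 stalk, had 26.5, 29.2, 34.7, 38.5 and 33.1 CPM in wt/wt and 21.9, 27.2, 23.2 and 22.4 CPM in ko/ko. Here too a single ko/ko library, the second, lay within the wt/wt range. Its log2 fold change of -0.45 (SE 0.15) had adjusted p = 0.218 by edgeR and 0.0214 by limma voom. Mrpl10, at the base of the factor-binding stalk, averaged 40.9 ± 8.89 CPM (SD, n = 5) and 31.0 ± 6.15 CPM (SD, n = 4). Mrpl12, the stalk protein that also binds the mitochondrial RNA polymerase, averaged 23.1 ± 5.33 CPM (SD, n = 5) and 19.4 ± 2.96 CPM (SD, n = 4). Their log2 fold changes were -0.40 and -0.25, with edgeR adjusted p-values of 0.361 and 0.572, so neither difference exceeded the spread.

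Mrpl32 was the only member with every ko/ko library below every wt/wt library, against 2.74% of all genes. Its values were 43.12, 44.9, 47.7, 56.7 and 48.3 CPM in wt/wt and 43.07, 34.0, 40.4 and 32.1 CPM in ko/ko. The gap between wt/wt 1 and ko/ko 1 was smaller than the 0.0578 CPM that 1 count was worth in ko/ko 1, so the groups met rather than stood apart. The log2 fold change was -0.37 (SE 0.14), with adjusted p = 0.269 by edgeR and 0.0382 by limma voom. Without wt/wt 1, wt/wt 2 or ko/ko 1 the count of members lower without overlap was 4, and without ko/ko 2 or 4 it was 3, where the background ran from 4.07% to 5.26%. Without wt/wt 1, ko/ko 1 and ko/ko 4 together it was 20, against a background of 10.2%.

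Mrpl50, a large-subunit protein without a bacterial counterpart, had 54.7, 55.5, 55.6, 66.8 and 62.2 CPM in wt/wt and 55.1, 45.7, 45.7 and 46.5 CPM in ko/ko. In ko/ko, 3 libraries lay below all of wt/wt while ko/ko 1 stood among them. Its log2 fold change was -0.29 (SE 0.13), with adjusted p = 0.317 by edgeR. Mrpl33, a small protein near the tRNA exit site, was at 38.0 to 56.8 CPM in wt/wt and 26.4 to 46.3 CPM in ko/ko, with an edgeR adjusted p of 0.355. Mrpl9, Mrpl16 and Mrpl54 of the large subunit and Mrps6 of the small-subunit platform had log2 fold changes of -0.39, -0.30, -0.34 and -0.35, with edgeR adjusted p-values of 0.340 to 0.373. In Mrpl9 the ko/ko libraries were close together at 27.3 to 29.1 CPM, whereas wt/wt 4 and 5 stood at 48.9 and 46.6 CPM above 28.7 to 31.0 CPM in the other 3.

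Mrpl23, a protein beside the exit of the peptide tunnel, was the only member with every ko/ko library above every wt/wt library, against 3.51% of all genes. It had 3.10, 3.12, 2.88, 3.00 and 2.62 CPM in wt/wt and 5.32, 3.98, 3.66 and 5.01 CPM in ko/ko. The log2 fold change was 0.61 (SE 0.24, 95% interval 0.07 to 1.14), with adjusted p = 0.276 by edgeR and 0.142 by DESeq2. Without ko/ko 3 the count of members higher without overlap was 4, where the background was 4.56%.

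The value of Mrpl23 is uncertain because a processed pseudogene, Mrpl23-ps1, matched its transcript over 540 bases at 100% identity and held more reads than the gene. Mrpl23-ps1 had 27.5, 22.2, 33.0, 34.5 and 30.9 CPM in wt/wt and 32.4, 28.7, 26.0 and 33.7 CPM in ko/ko. Its genotypes overlapped, and the log2 fold change was 0.03 (SE 0.16), with adjusted p = 0.951 by edgeR. With gene and copy added together, the level was 32.6 ± 4.79 CPM (SD, n = 5) against 34.7 ± 4.27 CPM (SD, n = 4), with a log2 fold change of 0.09 (edgeR adjusted p = 0.815). The plot of single genes sets Mrpl23 and its copy side by side.

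**Figure D4:**
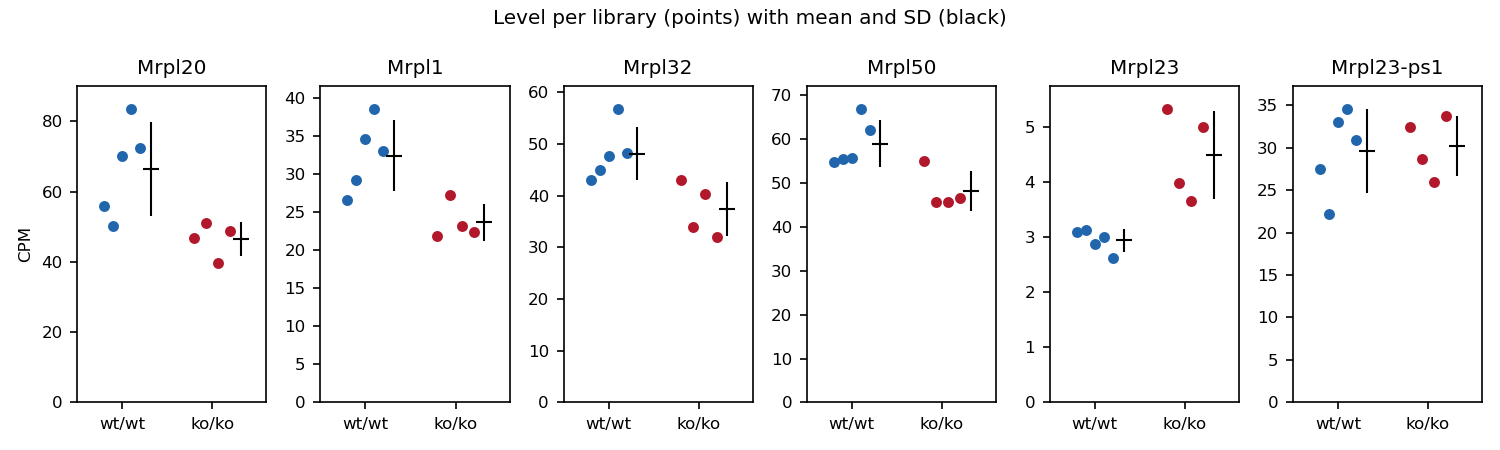
CPM per library of the 5 genes with an unadjusted p under 0.05 and of the pseudogene Mrpl23-ps1, for wt/wt (blue, n = 5) and ko/ko (red, n = 4), with mean and SD in black. Mrpl23 lies higher in ko/ko at 3.66 to 5.32 CPM, while Mrpl23-ps1, with the larger share of the reads, overlaps between genotypes at 22.2 to 34.5 CPM.

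Copies of this kind were frequent. Of the members, 25 had 63 pseudogene copies with at least 90% identity over at least 200 bases, and in 13 members the copies held over 10% of the member's CPM. In 2 members the copies together held more than the gene itself: Mrpl23 (8.24 times) and Mrps36 (2.97 times, over 9 copies). Mrps36, now known as a subunit of the alpha-ketoglutarate dehydrogenase complex and not of the ribosome, had 4.22 ± 0.834 CPM (SD, n = 5) and 3.55 ± 0.566 CPM (SD, n = 4) by its own counts. With its copies added it had 16.0 ± 2.02 CPM (SD, n = 5) and 15.0 ± 2.13 CPM (SD, n = 4). Adding copies to all 25 members left 4 members lower and 0 higher at an unadjusted p under 0.05, with a member median of -0.155.

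The largest positive values after Mrpl23 were those of Mrpl45 and Mrps25. Mrpl45, which ties the tunnel exit to the inner membrane, had 20.3, 23.2, 16.0, 23.6 and 24.2 CPM in wt/wt and 33.1, 26.9, 22.9 and 25.8 CPM in ko/ko. A single ko/ko library, the third, lay within the wt/wt range, and the log2 fold change was 0.34 (SE 0.17, edgeR adjusted p = 0.376). Mrps25, of the small subunit, averaged 27.6 ± 2.43 CPM (SD, n = 5) and 32.8 ± 6.45 CPM (SD, n = 4), and its adjusted p was 0.478 by edgeR.

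Among the 3 homologues of bacterial S18, Mrps18a differed in CPM from Mrps18b and Mrps18c by more than any of them differed between genotypes. The ranges of Mrps18b and Mrps18c overlapped. Mrps18a, which sits in the large subunit, had the highest CPM. It averaged 43.8 ± 4.47 CPM in wt/wt (SD, n = 5) against 40.5 ± 4.58 in ko/ko (SD, n = 4). Mrps18b had 11.8 to 17.7 CPM in wt/wt and 11.1 to 13.3 in ko/ko, and Mrps18c 13.0 to 20.1 and 10.4 to 16.0 CPM. Per kilobase the order was Mrps18c at 13.9, Mrps18a at 11.5 and Mrps18b at 6.20 CPM per kb. Their log2 fold changes ran from -0.27 to -0.11, with edgeR adjusted p-values of 0.521 to 0.729. The copies of Mrps18c held 0.684 times the CPM of the gene, so its level is uncertain.

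Other members with a defined role showed overlapping genotypes. Mrps12, at the decoding centre of the small subunit, averaged 15.8 ± 1.88 CPM (SD, n = 5) and 17.2 ± 4.09 CPM (SD, n = 4). Mrpl58, the hydrolase that frees peptides from stalled ribosomes, averaged 26.2 ± 4.15 (SD, n = 5) and 25.2 ± 6.43 CPM (SD, n = 4). Mrps30 and Mrpl37, related proteins that pair in the large subunit, had 31.6 ± 6.96 and 52.6 ± 5.40 CPM in wt/wt (SD, n = 5) and 29.4 ± 3.14 and 56.1 ± 8.51 CPM in ko/ko (SD, n = 4). The 4 had log2 fold changes of 0.12, -0.06, -0.10 and 0.09 in that order, with edgeR adjusted p-values of at least 0.791.

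Mrpl44, which has an RNase III-like fold, spread most between libraries. It had 3.51, 9.51, 9.62, 16.2 and 13.4 CPM in wt/wt and 13.4, 7.61, 10.9 and 9.66 CPM in ko/ko. The lowest and the highest value were both in wt/wt, 4.61-fold apart. Its interval was correspondingly wide, with a log2 fold change of -0.01 between -0.80 and 0.78 (edgeR adjusted p = 0.993).

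Exons of 31 members share bases with another gene, on the same strand in 8 and on the opposite strand in 26. The sources used here do not say whether the authors' counting used strand, and reads there cannot be divided between the genes. Mrps11 and Mrpl46 start head to head on chromosome 7 and overlap each other. Mrps11 had 10.3 to 19.8 CPM and Mrpl46 12.3 to 19.6 CPM over the 9 libraries, both with their highest value in ko/ko 1 and log2 fold changes of 0.03 and 0.01. Both values turned below 0 without ko/ko 1, to -0.15 and -0.16, and under limma voom, to -0.21 and -0.18. They are named for this overlap, after their values were seen.

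Genes that build or use the mitochondrial ribosome were read from lists, with 0 edgeR calls at an adjusted p under 0.05 in each list described from here on. Of all genes tested, 6.42% were lower and 8.86% higher at an unadjusted p under 0.05. DESeq2 called 192 lower and 438 higher of 17333 genes. For limma voom the counts were 585 lower and 1217 higher of 18435 genes. Of 5 other mitoribosomal proteins, which lack Mrp names, 1 was above and 4 were below 0, with a median of -0.077, 0 at an unadjusted p under 0.05, 0 called by DESeq2 and 1 called lower by limma voom. Of 25 assembly factors, 19 were below 0, with a median log2 fold change of -0.178; 5 were lower at an unadjusted p under 0.05, with 1 called by DESeq2 and 1 by limma voom. Rpusd4, a pseudouridine synthase of the large ribosomal RNA, was at 16.3 ± 1.73 CPM (SD, n = 5) and 9.97 ± 2.49 CPM (SD, n = 4), with a log2 fold change of -0.71 and adjusted p = 0.174 by edgeR and 0.0359 by DESeq2. Malsu1, an anti-association factor of the large subunit, and Dhx30, an RNA helicase of its assembly, had log2 fold changes of -0.55 and -0.39, each with an edgeR adjusted p of 0.223. Of 15 translation factors, 12 were below 0, with a median of -0.166, 2 lower at an unadjusted p under 0.05 and 0 called by DESeq2 or limma voom. The elongation factor Gfm1 was at 53.8 ± 3.16 CPM (SD, n = 5) and 38.4 ± 8.15 CPM (SD, n = 4), and its adjusted p was 0.215 by edgeR. Of 20 mitochondrial aminoacyl-tRNA synthetases and related enzymes, 11 were below 0, with a median of -0.008, 1 lower at an unadjusted p under 0.05 (Aars2) and 0 called by DESeq2 or limma voom. The member median of -0.164 thus lay near that of the assembly and translation factors.

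Among genes that act upstream, 6 of 9 genes of mitochondrial DNA expression and replication were below 0, with a median of -0.122. Tefm, Tfam and Polrmt, which elongate, package and transcribe that DNA, had log2 fold changes of -0.65, -0.63 and -0.42; these were the 3 with an unadjusted p under 0.05, their edgeR adjusted p-values were 0.215, 0.223 and 0.305, and the list had 0 calls by DESeq2 and 2 by limma voom. Of 10 nuclear regulators of mitochondrial genes, 6 were above 0, with a median of 0.114; Yy1 was the 1 with an unadjusted p under 0.05, at 16.1 ± 2.96 CPM (SD, n = 5) and 22.2 ± 2.66 CPM (SD, n = 4), with adjusted p = 0.254 by edgeR, 0 calls by DESeq2 and 1 by limma voom. Among tested members with a window, the 12 with a YY1 match had a median log2 fold change of 0.05 and the 56 without -0.18, while the 8 with an NRF1 core match had -0.28 and the 60 without -0.14; the split by ETS gave -0.17 and -0.15. These are descriptions of small groups with no test. Of 14 tested genes of the mitochondrial stress response, 8 were above 0, with a median of 0.028, 1 lower at an unadjusted p under 0.05 (Hspe1, the mitochondrial co-chaperonin), 0 called by DESeq2 and 1 by limma voom.

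The RNAs that the mitochondrial ribosome contains and reads varied far more between libraries than the messenger RNAs for its proteins. Protein was not measured. All 13 mitochondrially encoded mRNAs were below 0, with a median log2 fold change of -0.86, 4 at an unadjusted p under 0.05, 1 called by DESeq2 and 5 by limma voom. They summed to 47040, 58850, 36810, 50230 and 20540 CPM in wt/wt and 47430, 14990, 11880 and 17140 CPM in ko/ko. In ko/ko, library 1 stood with the wt/wt libraries, and wt/wt 5 lay near the other 3 ko/ko libraries. The ribosomal RNAs mt-Rnr1 and mt-Rnr2 summed to 8678 to 17040 CPM in wt/wt and 3330 to 9356 CPM in ko/ko, with edgeR adjusted p-values of 0.314 and 0.166, and with mt-Rnr2 called lower by DESeq2 and both by limma voom. The libraries were made from polyadenylated RNA, of which ribosomal RNA is not the main target. In ko/ko 1 the member sum of 2605 CPM was the highest of its genotype, as was the mitochondrial mRNA sum, whereas wt/wt 5 had a high member sum of 2932 CPM with the lowest mitochondrial mRNA sum of wt/wt.

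The cytoplasmic ribosomal protein genes and the nuclear respiratory chain subunits are the most similar families. Of 82 tested cytoplasmic ribosomal protein genes, 77 were below 0, with a median of -0.40. Lower at an unadjusted p under 0.05 were 38 (46.3%), against 6.42% of all genes. Without overlap, 18 were lower, against 2.74% of all genes. DESeq2 called 12 lower, against 192 of 17333 genes, and limma voom 38, against 3.17% of all genes. Of 78 tested respiratory chain subunits, 63 were below 0, with a median of -0.19. Against the same shares of all genes, 9 (11.5%) were lower at an unadjusted p under 0.05 and 2 were lower without overlap. DESeq2 called 2 lower and limma voom 13. Mitochondrial ribosomal protein genes, with 4 lower at an unadjusted p under 0.05, gave a median closer to that of the respiratory chain subunits than to that of the cytoplasmic ribosomal proteins. The difference between these families was not tested. In summed CPM, cytoplasmic ribosomal protein genes had 7874 to 12150 in wt/wt and 7246 to 7714 in ko/ko, which did not overlap, and respiratory chain subunits had 7138 to 11400 and 7619 to 8732, which did.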

How the data were processed

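The values are raw counts of reads per gene as deposited by the authors, with a column for each sample. The submitters' processing notes name featureCounts 1.6.2, GSNAP and mm10, and the table's name gives Ensembl release 87. Per the labels' protocols, polyadenylated RNA was amplified by a SMART method and no molecular identifiers are stated. A floor from counts therefore holds counting error alone. The 95% intervals of fold changes come from the edgeR fit and include the spread between libraries. Handling of strand and of multi-mapped reads is not given in the sources used here. Of 49763 rows, 92 spike-ins were left out. Symbols were matched by identifier to GENCODE M21 (49412 of 49671 rows), and gene positions printed are the authors'.

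edgeR 4.0.16 (R 4.3.3) was fitted on all genes of 5 wt/wt and 4 ko/ko libraries with filterByExpr, TMM, robust quasi-likelihood and a two-sided test, adjusted by Benjamini-Hochberg at 0.05. The log2 fold change is ko/ko over wt/wt, and its SE was derived from the F statistic as size divided by root F. In data simulated for this comparison over 18435 genes, of which 200 were changed, 26% of 2-fold and 69% of 4-fold changes were recovered, with 3 false among 98 calls. Alternatives were other scalings and filters, DESeq2 1.42.0, limma 3.58.1 voom with quality weights, exon length and GC trends removed, and libraries left out. Adding pseudogene copies (blastn 2.17.0) was chosen after seeing the data. Promoter windows are from RefSeq.

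The members, lists and tests were chosen with earlier results of these data known. Named members were the 12 with the smallest p, the 4 highest and 4 lowest per kilobase, the 3 largest fold changes in each direction, any member the filter removed, and 12 fixed for their roles, with up to 3 genes of each related list. Members named outside this rule were chosen after their values or windows were seen. Replicates were numbered in accession order, which pairs no samples.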

Additional observations from a re-analysis of the deposited data

Results flagged for a closer look

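In Mrpl50, ko/ko 1 stood apart from the other ko/ko libraries, at a log2 CPM of 5.80 where the next was 5.56 and the lowest 5.53. In Mrps14, ko/ko 3 stood below the other ko/ko libraries, at 6.83 where the next was 7.24 and the highest 7.29. Over the 72 groups of 4 or 5 libraries examined, chance would give about 3.6 such gaps, at 1 in 20, and 2 were found.

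The spike-in sequences, which are not part of the comparison, held 6 counts in wt/wt 1, above the 3 counts that a count of 0 allows. The other libraries had 1 to 3 counts.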

How the results depend on the processing

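No paired analysis was possible because the titles give each sample its own identifier and no replicate number shared between genotypes. The count of 0 edgeR calls among members held under every alternative run except limma voom with quality weights, which called 6 lower. Of the 77 members, 4 were lower at an unadjusted p under 0.05 (6.42% of all genes). The count was 2 with library totals only (3.24%), 7 without a filter (3.77%), 23 with voom (12.5%), 9 without the 3 libraries richest in the predicted gene Gm10800, wt/wt 1, ko/ko 1 and ko/ko 4 (4.28%), and 2 to 12 with 1 library left out (4.52% to 7.81%). Members higher numbered 1 (8.86% of all genes). The count was 3 with library totals only (11.5%), 2 with the exon length trend removed (8.11%), 0 without a filter (7.99%), 0 without the Gm10800-rich libraries (8.37%), 0 with pseudogene copies added (8.85%), and 0 to 2 with 1 library left out (6.13% to 12.1%). Members without overlap numbered 1 in each direction, 1 to 4 in each direction with 1 library left out, and 20 lower without the Gm10800-rich libraries, where the background was 10.2%. The member median ran from -0.260, without those 3 libraries, to -0.045, with library totals only. With library totals only, the member median minus the all-gene median was -0.128, against -0.138 in the main fit. Settings with libraries left out had fewer libraries, and the cause of these shifts was not tested.

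Alternatives were run for the members with a fold change in the text, and some of those signs reversed. With library totals only, Mrps28 was 0.078, Mrps10 0.013, Mrpl58 0.056, Mrps30 0.014, Mrps18a 0.002 and Mrpl44 0.141. Mrpl44 was 0.026 with upper-quartile factors, 0.012 with the stricter filter and 0.021 with the GC trend removed. Mrps28 was 0.040 with the exon length trend removed and 0.012 with the GC trend removed, and Mrps10 was 0.072 with voom. With voom, Mrps14 was -0.071, Mrps11 -0.212 and Mrpl46 -0.181. Without the Gm10800-rich libraries, Mrps12 was -0.138, Mrps14 -0.079, Mrps11 -0.380 and Mrpl46 -0.168. Mrps11 was -0.008 with the exon length trend removed, and Mrps11 and Mrpl46 were -0.024 and -0.035 without a filter. With 1 library left out, Mrpl44 ran from -0.224 to 0.205, Mrps28 from -0.120 to 0.078, Mrps10 from -0.138 to 0.027, Mrpl58 from -0.221 to 0.080, Mrps12 from -0.053 to 0.200, Mrps11 from -0.150 to 0.164 and Mrpl46 from -0.157 to 0.086.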
